A study of Mus musculus with 9 samples.

Results

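The oligoadenylate synthetases are enzymes of the interferon response that sense double-stranded RNA. The 8 genes described here are Oas1a, Oas1b, Oas1c, Oas1g, Oas2, Oas3, Oasl1 and Oasl2, chosen by symbol from the 36410 genes of a count table, and all 8 were found in it. They were measured by RNA-seq in immortalized STHdh striatal cells of mouse (strain C57/BL6 per the labels). Control cells (STHdhQ7/Q7) carry a huntingtin (Htt) exon with 7 glutamine repeats on both alleles, HD-het cells (STHdhQ7/Q111) carry 7 repeats on one allele and 111 on the other, and HD-homo cells (STHdhQ111/Q111) carry 111 on both. The HD lines are knock-in cells, 111 being the mutant form of Huntington disease (HD), and no treatment is given in the labels for any line. Each genotype was 1 cell line with 3 replicate libraries, so genotype cannot be told apart from line, and nothing in the labels says whether the 3 libraries came from separate cultures. P values therefore measure only the spread between these libraries, which may be technical.

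On binding double-stranded RNA, the active synthetases join ATP molecules into short 2′-5′-linked oligoadenylates, called 2-5A. These act as an alarm signal in the antiviral response. The family's genes are known as interferon-stimulated genes: transcription factors such as Stat2, Irf9 and Irf7 act at a promoter element called the ISRE, and another element of interferon-stimulated promoters is called GAS. Oas1a and Oas1g encode small synthetases, Oas2 and Oas3 larger ones with repeated synthetase units, and Oasl1 and Oasl2 proteins that end in ubiquitin-like domains. Oasl2 retains synthetase activity and Oasl1 does not. Oas1b is the mouse flavivirus resistance gene, whose protein is cut short in C57BL/6 and other laboratory strains.

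All 8 genes lie on chromosome 5 (GRCm38), in clusters separated by 5792417 bases. The GENCODE annotation places Oasl2 at chr5:114896936-114912234 and Oasl1 at chr5:114923240-114937915, both on the plus strand and 11005 bases apart. The other cluster spans 191320 bases and holds Oas2 (chr5:120730333-120749853), Oas3 (chr5:120753098-120777661), Oas1c (chr5:120800194-120812514), Oas1g (chr5:120876142-120887613) and Oas1a (chr5:120896256-120907521) on the minus strand. Oas1b (chr5:120812635-120824163) lies on the plus strand of the same cluster, is annotated as a polymorphic pseudogene, and starts 121 bases from the start of Oas1c on the opposite strand.

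Promoter sequences are shown for the ISRE letters, since these set the members apart from each other. RefSeq promoters (GRCm38.p6, 250 bases before to 50 after the start) were matched for 6 of the 8 genes, all except Oas1b and Oas2. The 120 bases before each start are printed 5′ to 3′ on the gene's own strand, with every match to the ISRE letters in capitals. These were GAAA, any 2 bases and GAAA again, on either strand, and matches may overlap.
Oas1a (chr5:120907526-120907645, minus strand): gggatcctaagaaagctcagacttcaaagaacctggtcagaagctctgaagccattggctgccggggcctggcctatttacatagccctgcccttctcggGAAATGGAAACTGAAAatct
Oas1g (chr5:120887614-120887733, minus strand): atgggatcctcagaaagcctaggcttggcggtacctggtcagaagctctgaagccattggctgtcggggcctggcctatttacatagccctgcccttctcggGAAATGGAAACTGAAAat
Oas1c (chr5:120812515-120812634, minus strand): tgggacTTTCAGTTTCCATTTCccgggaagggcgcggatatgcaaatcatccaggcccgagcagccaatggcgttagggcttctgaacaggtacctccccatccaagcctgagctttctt
Oas3 (chr5:120777660-120777779, minus strand): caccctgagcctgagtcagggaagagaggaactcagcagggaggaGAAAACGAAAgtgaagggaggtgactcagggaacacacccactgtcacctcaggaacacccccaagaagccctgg
Oasl1 (chr5:114923120-114923239, plus strand): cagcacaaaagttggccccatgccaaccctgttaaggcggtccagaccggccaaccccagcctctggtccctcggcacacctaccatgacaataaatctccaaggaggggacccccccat
Oasl2 (chr5:114896814-114896933, plus strand): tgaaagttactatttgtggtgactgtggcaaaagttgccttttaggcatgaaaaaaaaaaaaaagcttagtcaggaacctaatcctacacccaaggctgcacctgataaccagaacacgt

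The ISRE letters were present in 4 of the 6 promoters, against 3.44% of 32851 RefSeq promoters of the same length and 2.96% of the 13297 whose genes were tested here. In Oas1a and Oas1g, a pair of overlapping matches sat directly before the start, at -20 to -5 and -18 to -3. Oas1c held the same pair on the opposite strand at -114 to -99, and Oas3 a single match at -75 to -66. The GAS letters, TTC and GAA with any 3 bases between them, searched in the whole promoter on both strands, matched in Oas1a only, at -98 to -90, against 8.3% of all promoters and 6.77% of those of tested genes. The Oasl1 and Oasl2 windows held neither set of letters, which says only that these letters are not in these windows.

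The 16 bases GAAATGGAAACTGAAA were identical in Oas1a, Oas1g and, on the opposite strand, Oas1c. They occurred in 7 of the 32851 promoter entries, which belong to 5 genes. In the Oas1a and Oas1g windows the 16 bases lay within a shared run of 56 bases. Between Oas1c and Oas1b the 16 bases lie at chr5:120812613-120812628, read in the direction of Oas1b, 6 bases before its annotated start, so that the upstream sides of these 2 genes share them. A match to the letters is a description of the sequence, and no binding was measured.

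**Figure D1:**
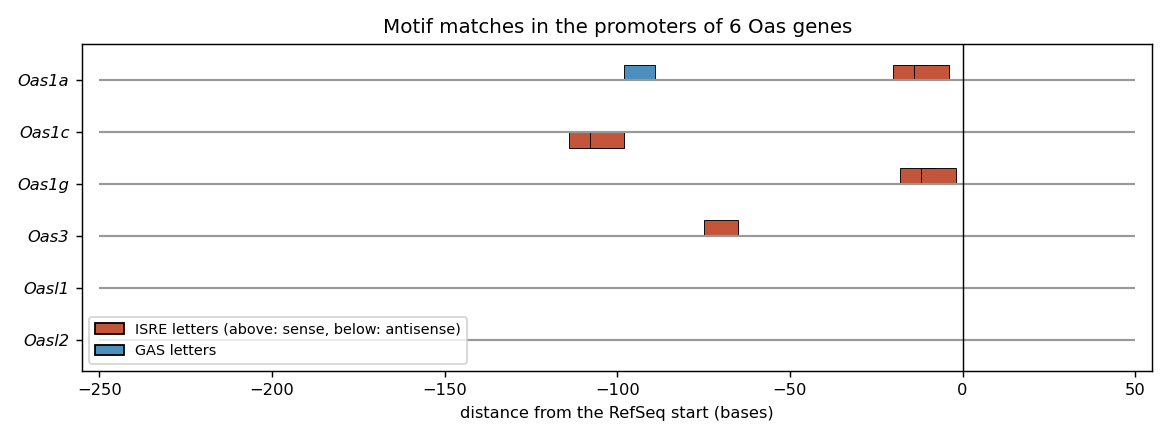
Positions of the ISRE letters and GAS letters in the RefSeq promoters of 6 oligoadenylate synthetase genes, with the distance from the start site in bases on the horizontal axis and 1 line per gene. Oas1a, Oas1g, Oas1c and Oas3 hold ISRE letters, Oas1a alone holds GAS letters, and the lines of Oasl1 and Oasl2 are empty.

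The 9 libraries held 29507665 to 41197931 counts, so that 3 counts, used as the detection floor of a library, corresponded to 0.071 to 0.101 normalized CPM (counts per megaread). Floors and exact counting intervals cover counting error only, whereas intervals of log2 fold changes cover the spread between libraries. The targeted gene Htt was lower with each mutant allele, at 93.0 to 104 CPM in control, 61.1 to 64.0 in HD-het and 19.2 to 21.7 in HD-homo libraries, and gene counts cannot show its repeat length. The striatal label rests on few defining markers: Drd1 had 0 reads in all 9 libraries, and 4 of 10 striatal neuron markers reached the test. Of that list, Foxp1 had 2601 to 6708 reads per library and Penk 8 to 116. The 5 general neuron markers, of which 3 reached the test, summed to 96.6 to 118 CPM in control, 111 to 117 in HD-het and 89.9 to 115 in HD-homo libraries. Most of this sum came from Map2, with 1560 to 2460 reads per library, and Tubb3, with 1185 to 1808. Rbfox3 had 0 to 2 reads per library and Dcx 0 to 1. Syn1 had 110 to 136 reads in control, 112 to 157 in HD-het and 39 to 48 in HD-homo libraries. The 4 fibroblast markers summed to 9680 to 17900 CPM but moved apart. Col1a2 had 2290 to 2372 reads in control and 50747 to 59571 in HD-homo libraries, and Acta2 60815 to 79848 and 2437 to 3794. The lists of other cell types had summed levels, in the order control, HD-het, HD-homo, of 2.52 to 2.84, 3.72 to 6.26 and 4.31 to 4.95 CPM for 8 immune markers, and of 2.24 to 2.53, 0.564 to 1.14 and 12.5 to 17.7 CPM for 3 astrocyte markers. Of the immune markers, 2 reached the test, and Aif1 and Cd3e had 0 reads in every library. Csf1r had 13, 22 and 17 reads in control, 27, 19 and 22 in HD-het and 69, 69 and 79 in HD-homo libraries. Ptprc went the other way, with 5, 7 and 6 reads in control and 1, 4 and 2 in HD-homo libraries. The astrocyte sum, highest in HD-homo cells as the members were, came almost wholly from Slc1a3, the 1 astrocyte marker tested, with 66, 81 and 67 reads in control, 14, 17 and 34 in HD-het and 406, 748 and 457 in HD-homo libraries. Gfap had 4 to 6 reads in control and 1 to 2 in HD-homo libraries, and Aqp4 had 0 in both lines. The part of Slc1a3 and of Csf1r in the results was not tested. A library holds RNA of many cells, so that more expressing cells and more RNA per cell cannot be told apart.

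All 8 genes were higher in HD-homo cells than in either other line, with every HD-homo library above every control and every HD-het library. Summed over the 8 genes, the level was 0.591 to 0.676 CPM in control, 1.08 to 1.83 CPM in HD-het, and 33.5, 33.1 and 68.5 CPM in HD-homo libraries. Among the 13508 tested genes, 32.7% had every HD-homo library above every control library and 36.5% had every HD-homo library above every HD-het library. The median of the 8 folds, with lower bounds where a line lay at the floor, was 43.4 against control and 21.8 against HD-het cells. On the log2 scale these were 5.44 and 4.45. Fitted log2 fold changes, which depend on the prior count for genes near 0, had medians of 7.18 and 5.49 over the 7 members tested. Over all tested genes the fitted medians were 0.008 and 0.002.

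**Figure D2:**
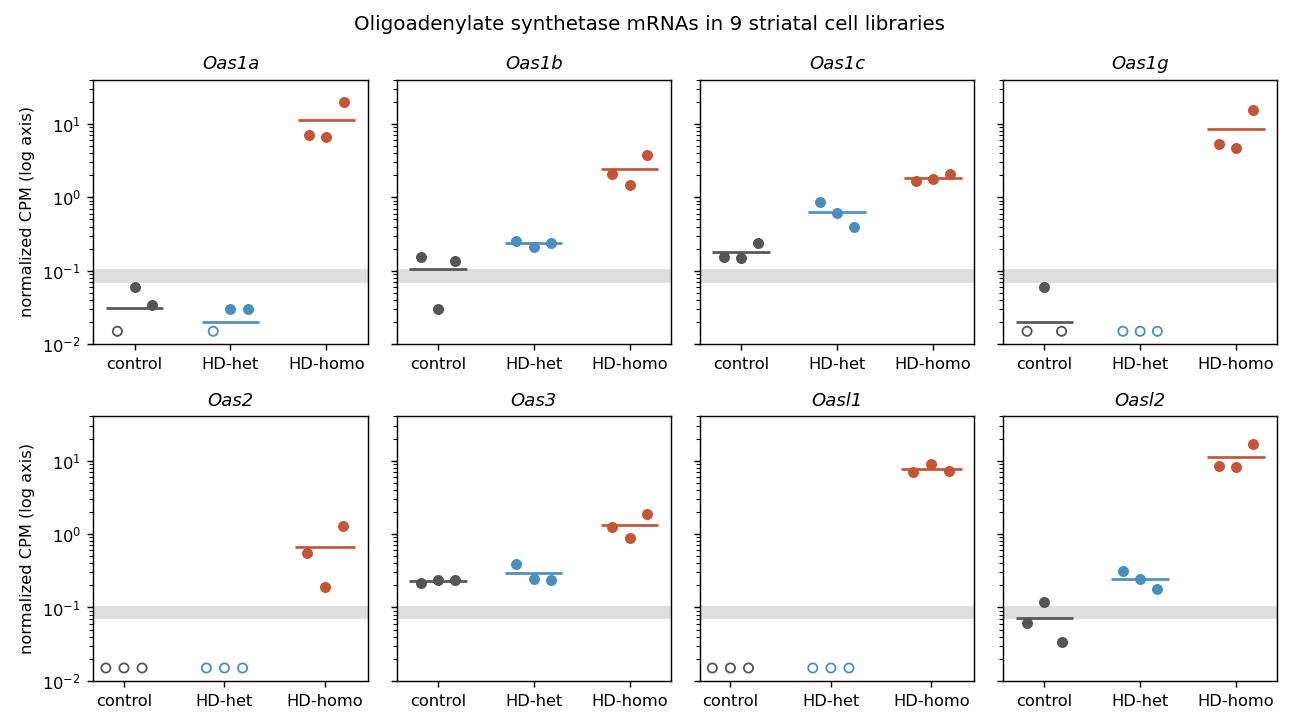
Normalized CPM of the 8 oligoadenylate synthetase genes in each of the 9 libraries, on a log axis, with filled points for libraries, open points at the bottom for libraries with 0 reads, lines for means and a grey band for 3 counts per library. The HD-homo libraries sit above all others for every gene, and Oas2 and Oasl1 sit at 0 in the control and HD-het libraries.

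The members were tested with edgeR (quasi-likelihood, Benjamini-Hochberg adjusted p under 0.05). Of 7 members tested, 7 exceeded their control level in HD-homo cells, beside 29.6% of all tested genes. Against HD-het cells 7 were higher as well, beside 36.0% of all tested genes. Of these 7, 6 passed the filter on low counts through their HD-homo libraries alone, so that they could hardly miss a difference, and the counts are given as a description. Oas2 missed the filter. Without that filter 8 of 8 were higher in both comparisons, beside 23.1% of 17876 genes against control and 28.5% against HD-het cells. The comparisons share libraries: HD-homo enters both of these, and control cells enter the comparisons of both HD lines.

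Oas1a and Oas1g, the small synthetases, rose from near 0. Oas1a had 0, 2 and 1 reads in control libraries 1 to 3, 0, 1 and 1 in HD-het, and 228, 283 and 667 in HD-homo. The HD-homo mean was 11.2 ± 7.53 CPM (SD, n = 3), carried most by replicate 3 at 19.9 CPM beside 6.99 and 6.70. Against the 3 control reads the count ratio was 345 (95% exact counting interval 118 to 1680), and against 3 counts per library the fold was 118 as a lower bound. The fitted log2 fold change, which depends on the prior count for so low a control, was 8.31 (SE 0.752, adjusted p = 2.8e-06 by edgeR).

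Oas1g followed the same course with 0, 2 and 0 reads in control, 0 in each HD-het, and 175, 201 and 521 in HD-homo libraries. Its HD-homo levels of 5.36, 4.76 and 15.5 CPM again placed replicate 3 apart from the other 2. The count ratio against control was 395 (95% exact counting interval 109 to 3260) and the lower bound against the floor 90.4, with a log2 fold change of 8.43 (SE 0.911, adjusted p = 4.1e-05 by edgeR). Against HD-het cells, all at 0, Oas1g was at least 96.5-fold higher and Oas1a had a lower bound of 126.

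Oas1a and Oas1g are near copies. Of the 50-base words of the longest coding Oas1a transcript, 57.6% also occur in Oas1g, and 54.1% of those of Oas1g occur in Oas1a, so how reads were divided between them is uncertain. The ratio of Oas1g to Oas1a was 0.768, 0.710 and 0.781 in the HD-homo libraries. Oas1c shared 10.7% of its words with other genes and Oas1b 3.19%, while Oas3 shared 0.471% and Oas2, Oasl1 and Oasl2 shared none. Added into 1 count, Oas1a, Oas1b, Oas1c and Oas1g rose in HD-homo against control cells by 6.14 on the log2 scale (SE 0.505, adjusted p = 1.2e-06 by edgeR), which does not depend on the division.

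Oas1b had 5, 1 and 4 reads in control, 9, 7 and 8 in HD-het and 68, 63 and 126 in HD-homo libraries. The line means were 0.107 ± 0.0675, 0.236 ± 0.0205 and 2.44 ± 1.18 CPM (SD, n = 3), and neither HD line overlapped control cells. Oas1b rose 22.9-fold in HD-homo against control cells (log2 fold change 4.48, SE 0.492, adjusted p = 1.4e-05 by edgeR) and 10.4-fold against HD-het cells (adjusted p = 2.5e-05).

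Oas1c was the member that passed the test in all 3 comparisons. It passed the filter on low counts through the HD-het and HD-homo libraries and not through control. Its calls against control are therefore given as a description too. Its reads were 5, 5 and 7 in control, 31, 20 and 13 in HD-het and 54, 75 and 70 in HD-homo libraries, and no line overlapped another. Mean levels were 0.180 ± 0.0489, 0.624 ± 0.243 and 1.84 ± 0.223 CPM (SD, n = 3). Oas1c rose 10.2-fold in HD-homo against control cells (log2 fold change 3.34, SE 0.324, adjusted p = 5e-06 by edgeR) and 2.95-fold against HD-het cells (log2 fold change 1.55, SE 0.257, adjusted p = 0.00023). An annotated gene on the opposite strand, Gm43069, overlaps Oas1c, and the libraries were prepared to keep strand, although the sources used here do not give the counting setting.

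Oas3, the largest synthetase, had a low level in every line. It had 7, 8 and 7 reads in control, 14, 8 and 8 in HD-het and 41, 37 and 63 in HD-homo libraries. The means were 0.231 ± 0.0113, 0.293 ± 0.0884 and 1.34 ± 0.506 CPM (SD, n = 3). Its rise in HD-homo cells was 5.80-fold against control (log2 fold change 2.50, SE 0.354, adjusted p = 1e-04 by edgeR) and 4.57-fold against HD-het cells (adjusted p = 0.00013), the smallest against control cells of the 8 genes.

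Oas2 was the least abundant member in HD-homo cells. It had 0 reads in the 6 control and HD-het libraries and 18, 8 and 43 in HD-homo, or 0.552, 0.189 and 1.28 CPM. Against the floor it was at least 7.13-fold higher than in control and at least 7.61-fold higher than in HD-het cells. Fitted without the filter, its difference from control passed the test (adjusted p = 0.0018 by edgeR among 17876 genes). Gm43068, an annotated gene on the opposite strand, overlaps Oas2.

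Oasl1 was read in HD-homo libraries alone. It had 0 reads in all 6 control and HD-het libraries and 229, 384 and 243 in HD-homo, at 7.02, 9.09 and 7.25 CPM. Oasl1 rose at least 82.3-fold against control and at least 87.9-fold against HD-het cells (adjusted p = 7.6e-07 and 4.5e-07 by edgeR). The Oasl1 protein is known as an inhibitor of Irf7 translation in mouse cells. It is overlapped on the opposite strand by the annotated gene Gm13822.

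Oasl2 had 2, 4 and 1 reads in control, 11, 8 and 6 in HD-het and 279, 347 and 564 in HD-homo libraries. Its means were 0.0717 ± 0.0433, 0.245 ± 0.0652 and 11.2 ± 4.87 CPM (SD, n = 3), with HD-het between the other 2 lines and overlapping neither. Oasl2 rose 156-fold in HD-homo against control cells (log2 fold change 7.18, SE 0.461, adjusted p = 1.6e-07 by edgeR) and 45.8-fold against HD-het cells (log2 fold change 5.49, SE 0.377, adjusted p = 1.8e-07).

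**Figure D3:**
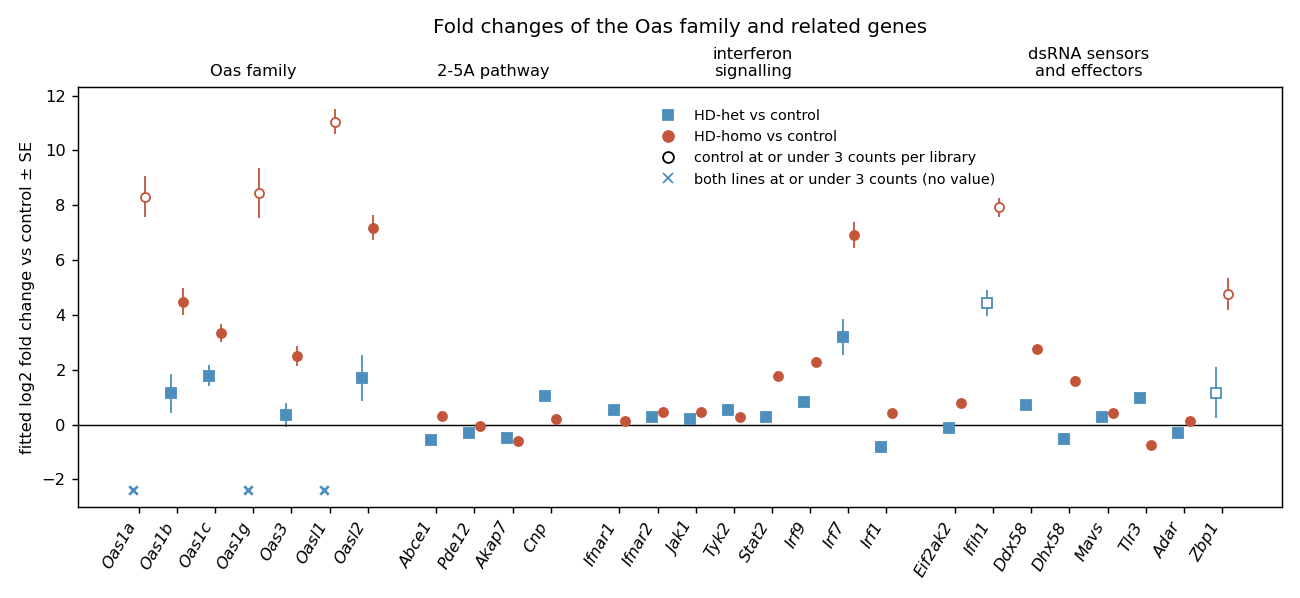
Fitted log2 fold change against control cells, with SE, of the 7 tested oligoadenylate synthetase genes, the 2-5A pathway, interferon signalling and other sensors and effectors of double-stranded RNA, in HD-het (squares) and HD-homo cells (circles). Open symbols have a control at or under 3 counts per library and depend on the prior count, crosses mark pairs of lines that both lay there, and the tested members run from 2.50 for Oas3 to 11.05 for Oasl1 in HD-homo cells.

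Within the line, the 3 HD-homo libraries did not hold the members at one level. Replicate 3 was the highest for 7 of the 8 genes and replicate 2 for Oasl1. The highest library exceeded the lowest 6.77-fold for Oas2, 3.26-fold for Oas1g, 2.97-fold for Oas1a, 2.52-fold for Oas1b, 2.14-fold for Oas3 and 2.05-fold for Oasl2, but 1.3-fold for Oasl1 and 1.26-fold for Oas1c. The ratio of Oasl1 to Oas1a therefore changed within the line, from 1.00 and 1.36 in replicates 1 and 2 to 0.364 in replicate 3. Among the transcription factors, Irf7 varied 2.38-fold and Irf9 1.63-fold with replicate 3 highest, and Stat2 varied 1.05-fold. Irf1 was lowest in replicate 3, at 18.7 CPM beside 26.7 and 23.9 in replicates 1 and 2.

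Without HD-homo replicate 3, the folds or lower bounds against control cells were 72.3 for Oas1a, 53.5 for Oas1g, 16.7 for Oas1b, 9.52 for Oas1c, 4.62 for Oas3, 3.92 for Oas2, 85.1 for Oasl1 and 117 for Oasl2. The fitted log2 fold changes of Oas1a and Oas1g were then 7.60 and 7.68, and those without control replicate 2, which held 2 of the 3 control reads of Oas1a and both of Oas1g, were 9.13 and 11.18. Against HD-het cells and without HD-homo replicate 3 they were 8.19 for Oas1a and 10.42 for Oas1g. The calls held in each case.

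**Figure D4:**
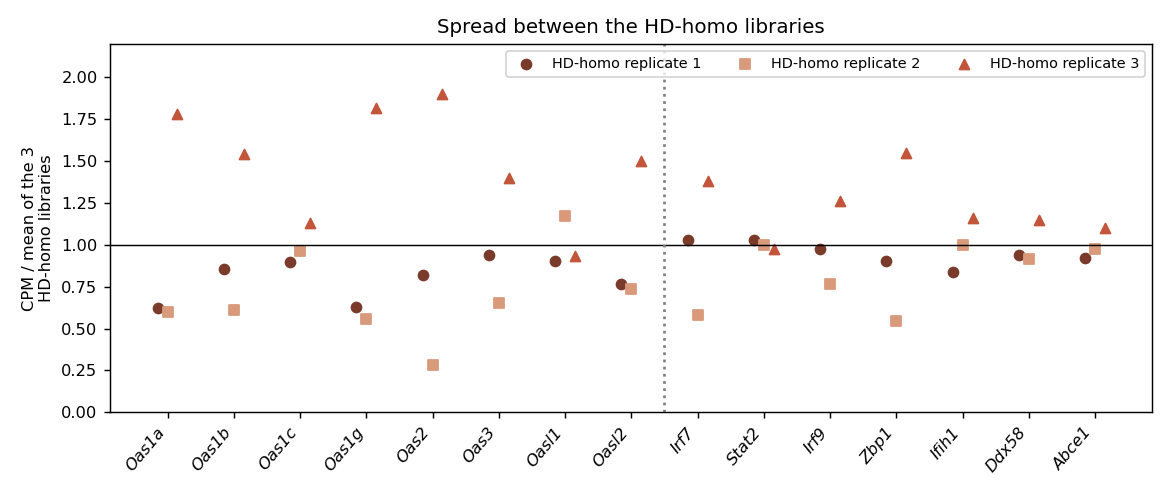
Level of each named gene in the 3 HD-homo libraries divided by its mean over them, 1 point per library. Replicate 3 lies highest for 7 of the 8 oligoadenylate synthetase genes, Oasl1 and Oas1c spread least among the 8, and Stat2 hardly varies.

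Levels were compared between genes per kilobase of the longest coding transcript. In HD-homo cells the order was Oas1a at 5.94 ± 4.0, Oas1g at 4.32 ± 3.05, Oasl2 at 3.58 ± 1.56, Oasl1 at 3.57 ± 0.52, Oas1b at 1.33 ± 0.641, Oas1c at 0.805 ± 0.0969, Oas3 at 0.284 ± 0.107 and Oas2 at 0.170 ± 0.14 CPM per kilobase (SD, n = 3). The first 4 overlapped each other over their libraries, as did Oas1b with Oas1c and Oas3 with Oas2. The lowest library of Oasl1, at 3.22, lay above the highest of Oas1b, at 2.05, and the lowest of Oas1c, at 0.725, above the highest of Oas3, at 0.398.

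HD-het cells differed from control cells in few of these genes. Of the 7 tested members only Oas1c passed the test, beside 33.8% of all tested genes that were higher. Its rise was 3.46-fold (log2 fold change 1.79, SE 0.376, adjusted p = 0.0014 by edgeR). Oas1c had passed the filter through the HD lines and not through control. For 4 of the 8 members, Oas1b, Oas1c, Oas3 and Oasl2, every HD-het library lay above every control library, beside 38.7% of all tested genes. The values that missed the threshold were 3.41-fold for Oasl2 (log2 fold change 1.70, 95% interval -0.34 to 3.73, adjusted p = 0.094), 2.21-fold for Oas1b (1.14, -0.60 to 2.88, adjusted p = 0.18) and 1.27-fold for Oas3 (0.35, -0.75 to 1.44, adjusted p = 0.51), all by edgeR. For Oas1a, Oas1g, Oas2 and Oasl1 both lines lay at or under 3 counts per library, too few to detect a difference at this depth.

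The HD-het calls depended on the setting. Oasl2 passed the test without HD-homo replicate 3 (adjusted p = 0.0074 by edgeR), a library outside the comparison that enters the shared estimate of the spread, and by the Wald test of DESeq2 (adjusted p = 0.019), whereas the 4 Oas1 genes added into 1 count did not (log2 fold change 1.39, SE 0.713, adjusted p = 0.11 by edgeR). An exact permutation test of 3 against 3 libraries cannot go below 0.1 and gave that value for Oas1b, Oas1c, Oas3 and Oasl2.

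The remaining 4 mouse Oas1 genes of the table stayed low in every line. Oas1d, Oas1e, Oas1f and Oas1h together had 0, 0 and 2 reads in control, 9, 6 and 3 in HD-het and 17, 19 and 20 in HD-homo libraries. None reached the filter. For Oas1f, with 7, 6 and 8 reads in HD-homo against 2 in all control libraries, the count ratio was 9.24 (95% exact counting interval 2.26 to 81.3), and for Oas1h no library exceeded 2 reads.

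The genes listed for the 2-5A pathway moved in mixed directions. Of the 4 compared, 1 rose and 1 fell in HD-homo cells against control, not far from the 29.6% higher and 28.9% lower of all tested genes. The list's median log2 fold change was 0.08. Abce1, known for recycling ribosomes and as an inhibitor in this pathway, rose 1.24-fold (adjusted p = 0.0059 by edgeR), and Akap7, whose product degrades 2-5A, fell by 0.61 on the log2 scale (adjusted p = 0.00082). Pde12, another 2-5A-degrading enzyme, was at 38.9 ± 1.1 CPM in control and 37.9 ± 3.1 in HD-homo cells (SD, n = 3, adjusted p = 0.70 by edgeR).

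In HD-het cells 1 of the 4 was higher and 3 were lower than in control cells, beside 33.8% higher and 31.4% lower over all tested genes. Cnp, the cyclic nucleotide phosphodiesterase of myelin, rose 2.05-fold (adjusted p = 3.4e-05 by edgeR). Abce1 fell by 0.55, Akap7 by 0.49 and Pde12 by 0.29 on the log2 scale (adjusted p = 1e-04, 0.0028 and 0.005). Abce1 thus moved in opposite directions in the HD lines, and its HD-homo level was 1.82 times that of HD-het cells (adjusted p = 2.3e-06). Between the HD lines 2 of the 4 were higher and 1 lower in HD-homo cells, not far from the 36.0% and 35.6% of all tested genes.

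Most genes of interferon signalling, which drives OAS transcription, were higher in both HD lines. Of the 9 compared, 8 were tested, and 7 rose and 0 fell in HD-homo cells against control, with a median log2 fold change of 0.46, beside 29.6% higher and 28.9% lower over all tested genes. In HD-het cells 7 rose and 1, Irf1, fell (median 0.41), beside 33.8% and 31.4%. From HD-het to HD-homo cells 5 rose and 2 fell (median 0.76), beside 36.0% and 35.6%. Ifnb1, encoding interferon beta, had 0 reads in all 9 libraries.

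Irf7, an interferon regulatory factor, had the largest fold of the list in HD-homo cells. Its levels were 0.187, 0.0297 and 0.101 CPM in control, 0.987, 1.22 and 0.779 in HD-het and 13.6, 7.67 and 18.2 in HD-homo libraries, with no overlap between lines. Irf7 rose 124-fold in HD-homo and 9.39-fold in HD-het against control cells (adjusted p = 2.9e-07 and 0.0012 by edgeR). Irf7 passed the filter on low counts through the HD lines and not through control. Irf9 and Stat2 rose 4.91- and 3.45-fold in HD-homo cells, and 1.76- and 1.23-fold in HD-het cells. The Stat2 rise in HD-het cells was lost without control replicate 1 or HD-het replicate 2 (adjusted p = 0.057 and 0.069).

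Other sensors and effectors of double-stranded RNA were compared from a list of 8. Against control, 6 rose and 1 fell in HD-homo cells (median log2 fold change 1.19), beside 29.6% higher and 28.9% lower over all tested genes. In HD-het cells 4 rose and 2 fell (median 0.49), not far from the 33.8% and 31.4% of all tested genes. From HD-het to HD-homo cells 6 rose and 1 fell (median 1.49), beside 36.0% and 35.6%. Ifih1, which encodes the sensor MDA5, had 0.0622, 0 and 0.0676 CPM in control and 9.32, 11.1 and 12.9 in HD-homo libraries, with a lower bound of 118 on its fold. It also rose in HD-het cells, to 0.790, 1.13 and 1.05 CPM (lower bound 10.4, adjusted p = 1.2e-05 by edgeR). Like Irf7, it passed the filter on low counts through the HD lines and not through control. Ifih1 thus rose in both HD lines, as Oas1c did. Oas1a, Oas1g, Oas2 and Oasl1 lay at the floor in HD-het cells, with too few reads to detect a difference from control. Tlr3, the endosomal receptor for double-stranded RNA, fell by 0.75 on the log2 scale in HD-homo cells (adjusted p = 0.0015) and rose 1.97-fold in HD-het cells (adjusted p = 9.1e-05).

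Genes with the pattern most like each tested member were taken by the smallest root mean square difference of centred log2 CPM over the 9 libraries. Oas1a and Oas1g were both closest to C4bp (0.74 and 0.76), and Oasl1 to 3830403N18Rik (0.29), which like Oasl1 had a mean of 0 in control and HD-het cells and of 11.8 CPM in HD-homo cells. Oasl2 was closest to Thsd7a (0.51) and Il1rn (0.52), and Oas1b to Diras2 (0.38) and the nucleic acid sensor Zbp1 (0.42). Oas1c was closest to Osbpl10 (0.23) and Irx3 (0.26), and Oas3 to Glul (0.20) and Rapgef4 (0.23). The 9 points of each comparison fall into the same 3 lines, so that any gene with the same order of lines comes close.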

How the data were processed

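Poly(A) RNA of 9 libraries was sequenced from directional libraries. Per the labels, the submitters' processing notes name cutadapt, Bowtie 1.1.2, RSEM 1.3.0 and DESeq2 with builds GRCm38.p5 and mm10, giving no role or order. The deposited values are whole-number counts per gene symbol, without normalization by the authors. If they are rounded RSEM estimates, reads shared by near-identical genes were divided between them by a model. Of 36410 rows, 26 have a date for a symbol and 2 repeat a symbol.

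Counts were analysed with edgeR 4.0.16 in R 4.3.3: filterByExpr with minimum count 10 (13508 genes), TMM, and the quasi-likelihood test with 1 mean per line over all 9 libraries. P values were adjusted by Benjamini-Hochberg over all tested genes with a threshold of 0.05. SE is the log2 fold change divided by the root of the F statistic. Folds are ratios of mean normalized CPM. A line with no library above 3 counts was set to that floor in each library, which makes its fold a lower bound. Intervals of count ratios are exact Clopper-Pearson bounds. Those of log2 fold changes extend the SE times a t quantile to either side. Promoters came from RefSeq (GRCm38.p6), gene positions and transcripts from GENCODE (GRCm38). On simulated data for HD-homo against control, 195 of 200 genes changed 4-fold were called among 12735, with 3.94% false calls. The changed genes were drawn from those with more control reads than any member had. In the data 29.6% of tested genes were called higher and 28.9% lower, a far larger share than was changed there. The simulation therefore does not show how the test performs for the members.

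The members, lists and tests were chosen with earlier results of these data known. All 8 members, the remaining Oas1 genes and the 2-5A pathway are named, list genes where needed, except for 2 list genes that are not reported here, and the 3 nearest patterns were computed for each tested member. Alternatives were other normalizations, DESeq2 1.42.0, other filters, prior count, line pairs, a replicate block, the Oas1 sum and leaving out each library.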

Additional observations from a re-analysis of the deposited data

How the results depend on the processing

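Of 351 recomputed log2 fold changes of members, 348 kept their side of the threshold, and 0 called values reversed. The sum of the 4 Oas1 genes stood in for each of them under that setting. Below the threshold, Oas1a in HD-het against control cells changed sign without control replicate 2 (-0.59 and 0.23 on the log2 scale). The count of members higher in HD-het than in control cells was 1, and became 0 with the 4 Oas1 genes summed, 2 by the Wald test of DESeq2 and 2 without HD-homo replicate 3; leaving out each library gave 1 to 2. The same leave-outs gave 7 to 8 members that rose in HD-homo cells, against control as against HD-het cells. With a prior count of 2, the log2 fold changes against control fell to 6.96 for Oas1a, 6.75 for Oas1g and 7.06 for Oasl1, so fitted values of genes near 0 are not bounds; the cause of the other shifts was not tested. A minimum of 10 counts in every library left no member to test.

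What libraries of the same number had in common was not tested. The correlations of their deviations were low, from -0.00621 to 0.112. Even so, 4 of 6 libraries correlated best with their own number in HD-homo against control. The same held for 6 of 6 in HD-het against control and 4 of 6 in HD-homo against HD-het. With the replicate number as a block, 7, 1 and 7 members were higher in these comparisons, and 4750 tested genes were higher in HD-het than in control cells beside 4561 without it. Of 1070 values of related genes, 28 lost and 6 gained the call. Tyk2 and Irf1 in HD-homo and Dhx58, Jak1 and Stat2 in HD-het cells against control were among those lost on leaving out a library, as was Tyk2 between the HD lines. Depth limits Oas2 and the HD-het comparison, where 4 members lay at the floor in both lines.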

Other observations

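The genes that flank the clusters were read after the members' values had been seen. Beside the Oas1 cluster, Dtx1, which encodes a ubiquitin ligase of Notch signalling, had 0 reads in 8 libraries and 1 in HD-het replicate 3. Rph3a, the synaptic vesicle protein rabphilin, had 0, 2 and 1 reads in control, 17, 15 and 40 in HD-het and 5, 5 and 9 in HD-homo libraries. Rph3a was highest in HD-het cells, through which alone it passed the filter on low counts. Against control at the floor, its fold had lower bounds of 7.52 in HD-het and 1.9 in HD-homo cells. The fitted log2 fold change, which depends on the prior count, was 4.34 in HD-het cells (SE 0.721, adjusted p = 0.00028 by edgeR). Rph3a was also higher in every HD-homo than in every control library (2.36, SE 0.939, adjusted p = 0.05 by edgeR, just under the threshold before rounding). Beside the Oasl genes, 2210016L21Rik differed 1.21-fold between HD-homo and control cells, at 20.5 and 17.0 CPM.

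Apol9a and Apol9b are the other genes whose RefSeq promoters hold the 16 bases shared by Oas1a, Oas1g and Oas1c, and they were looked up for that. Apol9a had a mean level of 0.796 CPM in control, 0.188 in HD-het and 20.4 in HD-homo libraries. In HD-homo cells it rose by 4.67 on the log2 scale (SE 0.327, adjusted p = 3.4e-07 by edgeR), and in HD-het cells it fell by 2.07 (SE 0.593, adjusted p = 0.0096). Apol9b gave 0.857, 0.188 and 20.1 CPM. The names mark near copies of one gene, so how reads were divided between them is uncertain. Oas1c, with the same bases, was higher in HD-het than in control cells.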
